A study of Mus musculus with 6 samples.

Results

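Chemokines and their receptors were measured in epididymal fat, a visceral adipose depot, of male mice fed a normal diet (ND) or a high-fat diet (HFD). Members were the protein-coding rows of the count table whose GENCODE M21 symbol belongs to the Ccl, Cxcl, Cx3cl, Ccr, Cxcr, Xcr, Cx3cr and Ackr series, together with Xcl1, Pf4 and Ppbp. The rule took 68 of the 54532 rows, which carry 63 symbols, and it used no measured value. Of these rows, 61 lie on chromosomes and 7 on unplaced scaffolds that hold further copies of Ccl19, Ccl21 and Ccl27. There were 46 ligand rows, 18 receptors and 4 atypical receptors.

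The series asked whether cells resembling cancer-associated adipocytes are found in the fat of obese mice. RNA-Seq of total RNA from whole fat was available for 3 ND and 3 HFD samples. Both diets were given to male C57BL/6J mice without a transgene or a drug, the ND with 4.5% fat and the HFD with 60% fat, from 4 weeks of age for 16 weeks, and HFD-fed mice were 20 weeks old. The labels do not say that each sample came from its own animal, so the p-values measure the spread between these samples. The libraries held 16996896 to 18859320 counts, so that 3 counts, the floor used here, correspond to 0.149 to 0.180 CPM (counts scaled to a common library size after TMM normalization), which covers counting error only. The diets were compared with the quasi-likelihood test of edgeR on the counts of 15751 genes, those that passed its filter on low counts. A gene is called higher or lower where the Benjamini-Hochberg adjusted p-value over all of these genes was under 0.05, and 9.85% of all genes tested were called higher and 6.04% lower on HFD.

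Chemokines are small secreted proteins that direct the migration of leukocytes, and they are classed by the spacing of their first cysteines into CC, CXC, XC and CX3C ligands. They bind receptors coupled to inhibitory G proteins on the moving cell, whereas the atypical receptors bind ligands without this signalling and clear them. In adipose tissue of obese animals the family is best known for the recruitment of monocytes that become macrophages, in which Ccl2 and its receptor Ccr2 have been studied most.

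On HFD, 14 members were higher and none was lower by edgeR's test, out of 44 that passed the filter. The called share was 31.8% of the members tested, against the 9.85% of all genes. Cxcl2, Ccl4 and Ccr3 held under 10 counts in each ND library and passed the filter only through their HFD libraries. A gene this low on ND could be tested only if it was high on HFD, which bears on the called share. Higher were 10 of 28 ligands tested (Cxcl2, Ccl3, Ccl9, Ccl4, Cxcl1, Ccl2, Ccl6, Ccl7, Ccl22 and Ccl11) and 4 of 12 receptors (Ccr3, Cxcr4 and Ccr7 among them), while none of the 4 atypical receptors was called. At an unadjusted p under 0.05, 16 members were higher and 4 lower, a count without a share over all genes to set beside it. DESeq2's Wald test called 16 members higher and 2 lower, and it called 3666 genes in all against 2504 by edgeR. The 9.85% belongs to edgeR's call alone. The median log2 fold change of the members tested was 0.26, against 0.0074 over all genes tested. In whole tissue, more or fewer cells of a type and more or less RNA per cell cannot be told apart. The plot of log2 fold changes of all members tested orders them by role and size.

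**Figure D1:**
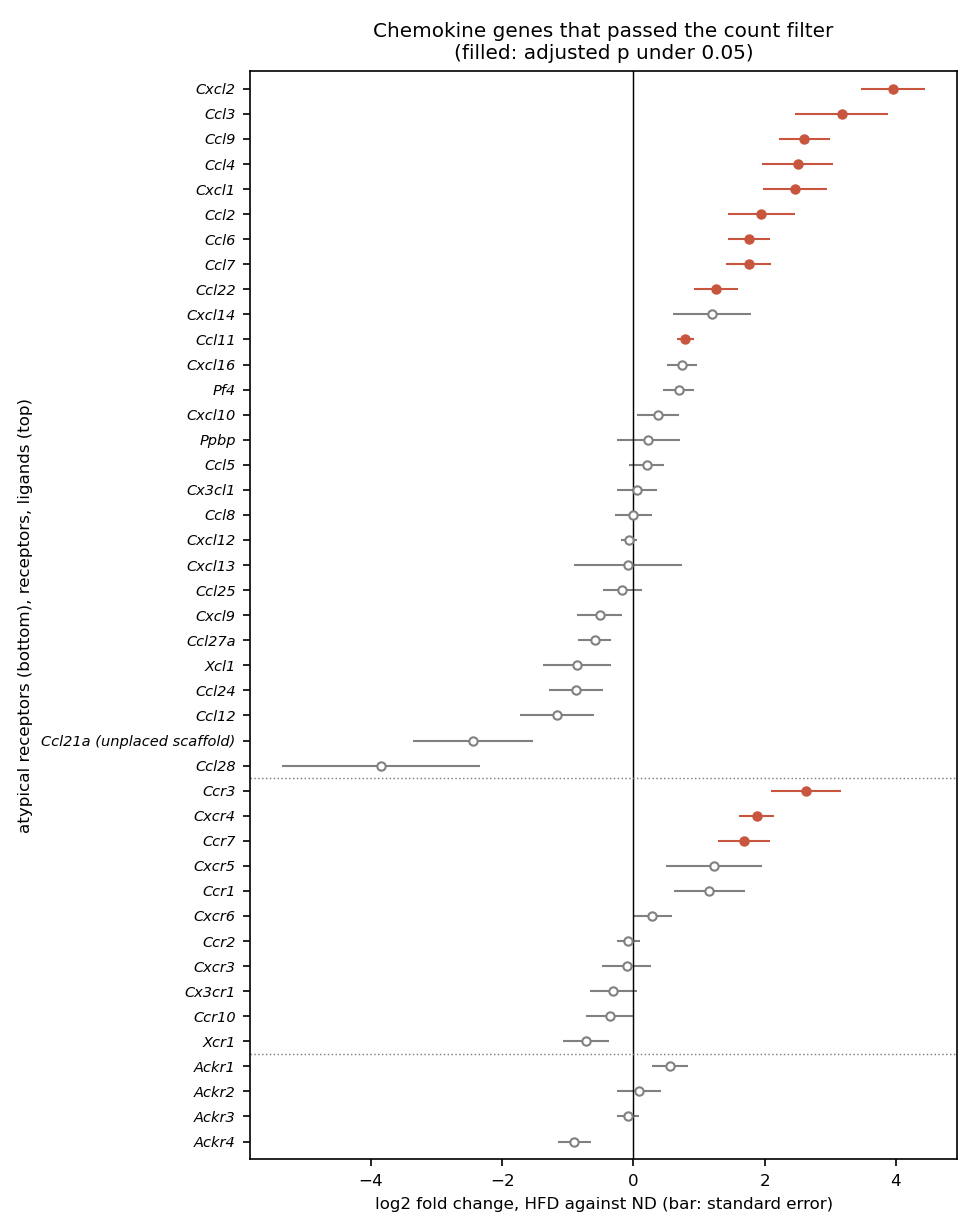
Log2 fold change of HFD against ND (x axis) of 43 chemokine genes that passed the count filter (y axis), with bars for the standard error and filled points for an adjusted p under 0.05 by edgeR. All 13 filled points lie to the right of 0, between 0.79 for Ccl11 and 3.96 for Cxcl2, and the 4 atypical receptors at the bottom hold no filled point.

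The values of a gene in the HFD libraries lay above all its ND values for 16 members tested (36.4%), against 21.9% of all genes tested. They lay below all ND values for 5 members (11.4%), against 19.0% of all genes, and overlapped for 23. Among the 14 members called higher, the HFD 3 library held the highest value of 11 and HFD 2 the lowest HFD value of 12. The summed level of 11 macrophage markers had the same order, with 4096 CPM in HFD 2, 5216 CPM in HFD 1 and 8772 CPM in HFD 3, against 1941 to 2045 CPM on ND. Summed over the adipocyte markers, the level was 40198 CPM in HFD 2, 29336 CPM in HFD 1 and 21027 CPM in HFD 3, the reverse order. The part of these shifts in the chemokine values was not tested.

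**Figure D2:**
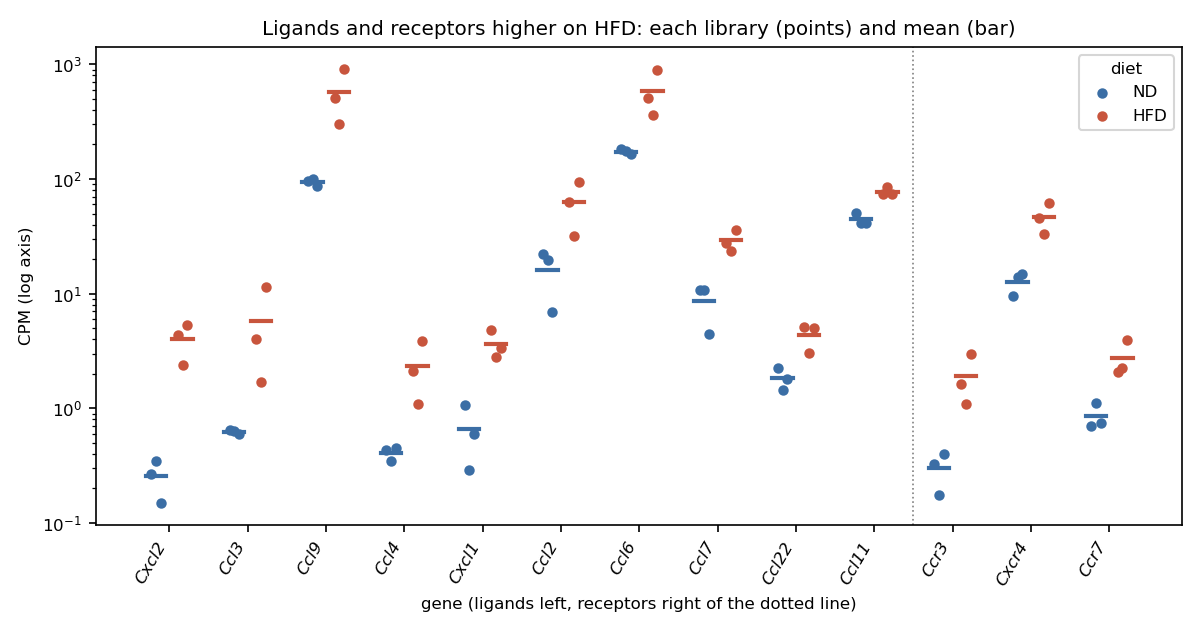
CPM (log axis) of 13 called members in each library, with a point per library, a bar at the mean of the 3 libraries of a diet, ligands left and receptors right of the dotted line. Every HFD point lies above every ND point of the same gene, from Cxcl2 with means of 0.255 and 4.02 CPM to Ccl6 with 173 and 588 CPM.

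Cxcl1 and Cxcl2, ELR-type CXC ligands that attract neutrophils through Cxcr2, were the 2 CXC ligands called among 10 tested, and both started from very few reads. Cxcl2 (ENSMUSG00000058427, chr5:90903871-90905938, plus strand) had counts of 5, 6 and 3 (ND) against 80, 40 and 92 (HFD). It rose in mean level, 0.255 ± 0.10 (ND) against 4.02 ± 1.47 CPM (HFD) (SD, n = 3), 15.5-fold, with a log2 fold change of 3.96 ± 0.49 (SE), adjusted p = 0.00651, the largest increase of any member tested. The diets did not overlap, and the lowest HFD count was 40 against a highest ND count of 6. With ND counts this low, Cxcl2 passed the filter only through its HFD libraries. The lack of overlap and the rank are therefore no separate support. Cxcl2 passed in 6 of the 6 fits that each left out 1 library, with log2 fold changes of 3.64 to 4.23 and adjusted p-values of up to 0.0408. Cxcl1 (ENSMUSG00000029380, chr5:90891241-90893115, plus strand) had counts of 20, 5 and 12 (ND) against 88, 47 and 58 (HFD). Its level was 0.655 ± 0.397 (ND) against 3.65 ± 1.03 CPM (HFD) (SD, n = 3), with a log2 fold change of 2.46 ± 0.49 (SE), adjusted p = 0.0200. All 3 HFD libraries were above the ND libraries, although the ND values themselves ranged widely. Cxcl1 passed in 3 of the 6 fits that each left out 1 library and missed the threshold without ND 2, ND 3 or HFD 1, with log2 fold changes of 2.12 to 3.01 and adjusted p-values of up to 0.0894.

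Their receptor Cxcr2 had almost no reads in the same libraries. Cxcr2 held at most 5 counts in a library and Cxcr1 none in any, so neither passed the filter. Cxcl5, another Cxcr2 ligand, had counts of 0, 3 and 0 (ND) against 0, 2 and 12 (HFD) and did not pass the filter, and no difference could be detected at its depth. Ppbp, a platelet-derived ligand of Cxcr2 chosen for mention after its values were seen, had counts of 11, 25 and 12 (ND) against 24, 13 and 17 (HFD), which overlapped (adjusted p = 0.774). Of 9 neutrophil markers, 5 were tested, with a median log2 fold change of -0.81. S100a8 and Csf3r were higher and Camp was lower, while Elane (log2 fold change -0.97) and S100a9 (-0.81) were not called. The sum of the 9 markers was 7.96 to 12.2 CPM (ND) against 14.9 to 18.8 CPM (HFD). S100a8 and Csf3r were the largest parts of this sum in each HFD library. The defining marker Ly6g held at most 1 count in a library. Whether the neutrophil markers had a part in the Cxcl1 and Cxcl2 values was not tested.

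The promoters of Cxcl1 and Cxcl2 are shown because these genes are the called pair of 1 gene stretch and because both windows hold the NF-kB consensus, the DNA motif of the inflammatory transcription factor NF-kB. The sequences are from RefSeq (build GRCm38.p6), run 5′ to 3′ on the gene's strand from 250 bases before to 50 after the start of transcription, and the capitals mark matches of the NF-kB consensus on either strand. The Cxcl1 window is chr5:90890995-90891294, plus strand, and the Cxcl2 window is chr5:90903649-90903948, plus strand.
Cxcl1: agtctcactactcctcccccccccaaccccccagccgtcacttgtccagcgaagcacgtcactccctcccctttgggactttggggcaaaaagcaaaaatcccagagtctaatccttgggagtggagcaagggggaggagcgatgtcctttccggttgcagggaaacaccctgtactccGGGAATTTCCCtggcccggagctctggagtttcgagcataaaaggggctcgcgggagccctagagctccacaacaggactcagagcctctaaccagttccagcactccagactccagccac
Cxcl2: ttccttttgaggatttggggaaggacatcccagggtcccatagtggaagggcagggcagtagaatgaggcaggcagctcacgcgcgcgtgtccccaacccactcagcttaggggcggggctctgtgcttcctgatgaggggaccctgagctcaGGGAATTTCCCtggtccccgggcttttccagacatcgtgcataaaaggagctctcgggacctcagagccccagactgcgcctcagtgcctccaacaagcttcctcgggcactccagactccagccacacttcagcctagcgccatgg
In both, matches on the 2 strands overlap in a single run of capitals, which begins 71 bases before the start in Cxcl1 and 97 bases before it in Cxcl2. The untested neighbour Cxcl3, with at most 4 counts in a library, held the same letters GGGAATTTCC beginning 73 bases before its start. Among 32851 promoter windows of this length, 4.51% held the consensus.

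A RefSeq window lay at 46 of the 61 members on chromosomes and at 8 of the 14 called higher. The consensus was found in 8 of the 46 windows, in 4 of the 8 of called members (Cxcl1, Cxcl2, Ccl9 and Ccr3) and in 2 of the 24 of members tested and not called (Ackr2 and Cxcl10). The interferon response element core GAAANNGAA was found in 1 of the 8 (Ccl3) and in 4 of the 24, against 8.56% of all windows. The AP-1 motif TGANTCA was found in 2 of the 8 and 4 of the 24, against 7.81%. The CCAAT box was found in 1 of the 8 and 9 of the 24, against 37.4%, and the TATA box TATAAA in 2 of the 8 and 9 of the 24, against 13.6%. Both strands were searched for each motif, and none of these letters shows that a factor was bound. Ccl11, Ccl2, Ccl4, Ccl7 and Ccr7 were among the called members without a window.

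The 5 CC ligand genes in a stretch of 139 kb on chromosome 11 (83525778 to 83664683) held 4 called members, Ccl9, Ccl6, Ccl3 and Ccl4, and their neighbour Ccl5 was not called. Ccl6 and Ccl9, rodent CC ligands that act through Ccr1, were the 2 most abundant members per length on HFD. Ccl9 (ENSMUSG00000019122, chr11:83572919-83578636, minus strand) had counts of 1783, 1722 and 1750 (ND) against 9296, 5016 and 15931 (HFD). It reached 94.3 ± 6.55 (ND) against 575 ± 313 CPM (HFD) (SD, n = 3), 6.09-fold, with a log2 fold change of 2.61 ± 0.39 (SE), adjusted p = 0.00990. The ND libraries were alike and the HFD libraries spread widely without reaching down to them. Ccl9 passed in 4 of the 6 fits that each left out 1 library and missed the threshold without ND 1 or ND 2, with log2 fold changes of 2.08 to 2.92 and adjusted p-values of up to 0.0519.

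Ccl6 (ENSMUSG00000018927, chr11:83587882-83593087, minus strand) had counts of 3365, 3021 and 3289 (ND) against 9242, 6020 and 15594 (HFD). Its level was 173 ± 9.03 (ND) against 588 ± 277 CPM (HFD) (SD, n = 3), 3.39-fold, with a log2 fold change of 1.76 ± 0.33 (SE), adjusted p = 0.0165. HFD 3 was highest and HFD 2 lowest of the HFD libraries, as for Ccl9. Ccl6 passed in 2 of the 6 fits that each left out 1 library and missed the threshold without ND 1, ND 2, ND 3 or HFD 1, with log2 fold changes of 1.30 to 2.02 and adjusted p-values of up to 0.0701. Measured per length in FPKM, Ccl6 and Ccl9 together made up 29.5, 30.9 and 31.0% of the summed level of all ligands on ND, against 51.5, 46.5 and 61.0% on HFD.

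Ccl3 and Ccl4, inflammatory ligands made by activated macrophages and lymphocytes, rose from a low level. Ccl3 (ENSMUSG00000000982, chr11:83647844-83649355, minus strand) had counts of 12, 11 and 12 (ND) against 74, 28 and 199 (HFD). The mean was 0.627 ± 0.0266 (ND) against 5.72 ± 5.09 CPM (HFD) (SD, n = 3), 9.04-fold, with a log2 fold change of 3.18 ± 0.71 (SE), adjusted p = 0.0272. The ND values were nearly equal, while HFD 3 was far above HFD 2. Ccl3 passed in 2 of the 6 fits that each left out 1 library and missed the threshold without ND 1, ND 2, ND 3 or HFD 1, with log2 fold changes of 2.16 to 3.61 and adjusted p-values of up to 0.0975. With limma-voom Ccl3 missed the threshold (adjusted p = 0.0748). Ccl4 (ENSMUSG00000018930, chr11:83662584-83664683, plus strand) had counts of 8, 6 and 9 (ND) against 39, 18 and 67 (HFD). Its level was 0.409 ± 0.0537 (ND) against 2.35 ± 1.40 CPM (HFD) (SD, n = 3), 5.66-fold, with a log2 fold change of 2.50 ± 0.54 (SE), adjusted p = 0.0237. Again all HFD libraries were above all ND libraries, but Ccl4 passed the filter only through its HFD libraries. Ccl4 passed in 2 of the 6 fits that each left out 1 library and missed the threshold without ND 1, ND 2, ND 3 or HFD 1, with log2 fold changes of 1.94 to 2.85 and adjusted p-values of up to 0.0903.

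Ccl5, which comes mostly from T and NK cells, was the gene of this stretch that was not called. Its counts were 100, 151 and 205 (ND) against 166, 181 and 142 (HFD), and the diets overlapped, with a log2 fold change of 0.21 ± 0.27 (SE), adjusted p = 0.625. Leaving out 1 library gave log2 fold changes of -0.020 to 0.38.

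The promoter window of Ccl9 (chr11:83578587-83578886, minus strand) is shown as the only one among the called CC ligands with a window that held the consensus, drawn as above.
Ccl9: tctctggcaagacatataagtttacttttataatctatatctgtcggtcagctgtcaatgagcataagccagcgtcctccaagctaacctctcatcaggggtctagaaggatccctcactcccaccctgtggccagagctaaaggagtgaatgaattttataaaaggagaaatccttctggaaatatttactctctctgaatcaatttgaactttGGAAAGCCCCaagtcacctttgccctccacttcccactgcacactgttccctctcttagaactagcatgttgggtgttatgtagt
Its match lies on the other strand, and its capitals begin 35 bases before the start. The window also held the AP-1 motif and the TATA box.

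A second stretch on chromosome 11 (82035571 to 82305690) held 6 CC ligand genes, of which Ccl2, Ccl7 and Ccl11 were higher on HFD, Ccl12 and Ccl8 were not called, and Ccl1 had too few counts. Ccl2 (MCP-1, ENSMUSG00000035385, chr11:82035571-82037453, plus strand), the main monocyte attractant acting through Ccr2, had counts of 409, 341 and 138 (ND) against 1148, 526 and 1621 (HFD). Its mean was 16.2 ± 8.19 (ND) against 62.5 ± 30.8 CPM (HFD) (SD, n = 3), 3.86-fold, with a log2 fold change of 1.95 ± 0.51 (SE), adjusted p = 0.0443. The ND 3 library was far below the other two ND libraries, and HFD 2 was the closest HFD library to ND. Ccl2 passed in 1 of the 6 fits that each left out 1 library and missed the threshold without ND 1, ND 2, ND 3, HFD 1 or HFD 3, with log2 fold changes of 1.52 to 2.27 and adjusted p-values of up to 0.141.

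Ccl7 (ENSMUSG00000035373, chr11:82045712-82047525, plus strand), a second ligand of Ccr2, had counts of 199, 186 and 89 (ND) against 509, 391 and 628 (HFD). Its level was 8.64 ± 3.65 (ND) against 29.1 ± 6.41 CPM (HFD) (SD, n = 3), 3.38-fold, with a log2 fold change of 1.75 ± 0.35 (SE), adjusted p = 0.0198. As for Ccl2, ND 3 was the lowest library and the diets did not overlap. Ccl7 passed in 3 of the 6 fits that each left out 1 library and missed the threshold without ND 1, ND 2 or HFD 1, with log2 fold changes of 1.40 to 1.95 and adjusted p-values of up to 0.0740. Ccl11 (ENSMUSG00000020676, chr11:82057823-82062955, plus strand), or eotaxin, which attracts eosinophils through Ccr3, had counts of 946, 716 and 826 (ND) against 1349, 1404 and 1279 (HFD). It rose in mean level, 44.5 ± 5.61 (ND) against 77.2 ± 6.27 CPM (HFD) (SD, n = 3), 1.73-fold, with a log2 fold change of 0.79 ± 0.13 (SE), adjusted p = 0.0119. This was the smallest called increase and also the one with the smallest standard error, and HFD 2 held the highest value. Ccl11 passed in 3 of the 6 fits that each left out 1 library and missed the threshold without ND 2, ND 3 or HFD 1, with log2 fold changes of 0.71 to 0.90 and adjusted p-values of up to 0.0567.

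The other genes of the stretch gave no call. Ccl12, another mouse ligand of Ccr2 chosen for mention after its values were seen, had counts of 77, 29 and 37 (ND) against 22, 8 and 30 (HFD), with a log2 fold change of -1.16 ± 0.56 (SE), adjusted p = 0.191. Its values overlapped, with ND 1 far above the rest, and the log2 fold change was -0.63 without ND 1. Ccl8, one of the most abundant ligands per length, had counts of 226, 287 and 326 (ND) against 182, 230 and 371 (HFD) and a log2 fold change of 0.00033 ± 0.29 (SE), adjusted p = 0.999, whose sign changed between settings.

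**Figure D3:**
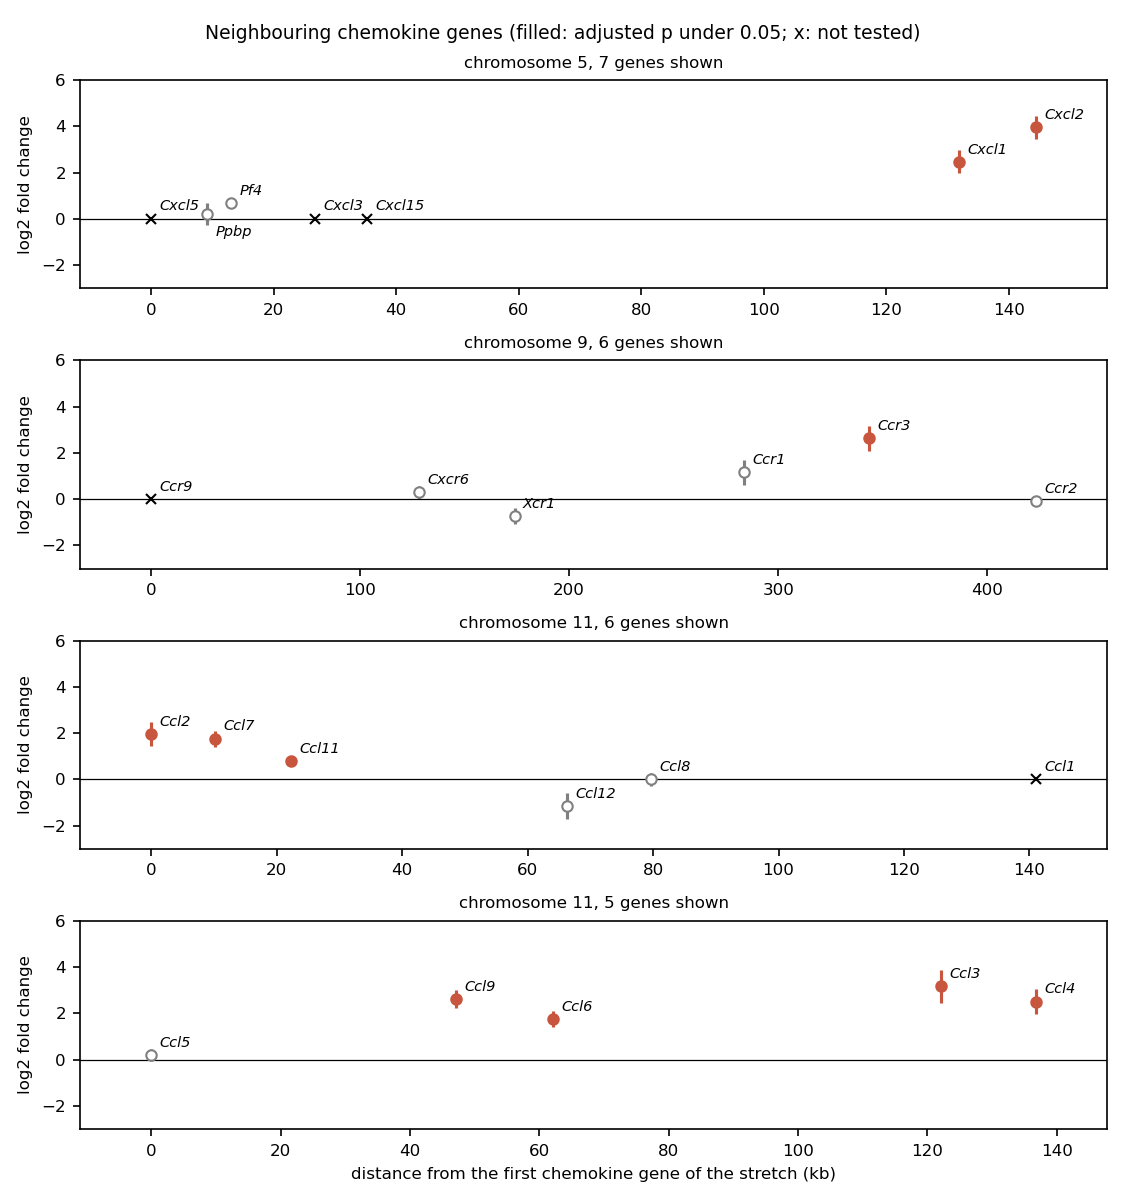
Log2 fold change (y axis) of members that lie in 4 gene stretches against the distance of each gene's start from the first chemokine gene of the stretch in kb (x axis), with bars for the standard error, filled points for an adjusted p under 0.05 and crosses at 0 for genes not tested. In the stretch of 5 genes on chromosome 11, 4 points are filled, while of the receptors shown on chromosome 9 Ccr3 is the filled one.

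Ccl22 (ENSMUSG00000031779, chr8:94745590-94751699, plus strand), a ligand of Ccr4 made by dendritic cells and macrophages, was the remaining CC ligand called. It had counts of 42, 25 and 36 (ND) against 94, 50 and 88 (HFD), a level of 1.83 ± 0.410 (ND) against 4.40 ± 1.21 CPM (HFD) (SD, n = 3) and a log2 fold change of 1.26 ± 0.34 (SE), adjusted p = 0.0451. The HFD libraries were above the ND libraries, by the narrowest margin in HFD 2. Ccl22 passed in 1 of the 6 fits that each left out 1 library and missed the threshold without ND 1, ND 2, ND 3, HFD 1 or HFD 3, with log2 fold changes of 1.10 to 1.47 and adjusted p-values of up to 0.175. It also missed the threshold with library sizes in place of TMM (adjusted p = 0.0599) and with protein-coding genes only (adjusted p = 0.0517). Its neighbour Ccl17, the other ligand of Ccr4, had counts of 41, 6 and 17 (ND) against 9, 4 and 3 (HFD) and did not pass the filter. The receptor Ccr4 held at most 5 counts in a library, and Cx3cl1, which lies between the 2 ligand genes, was not called.

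The remaining ligands tested were not called. Pf4, the platelet factor that macrophages also express, was the second most abundant member per length on ND, with 71.0, 80.4 and 75.7 FPKM (ND) against 127, 79.9 and 155 FPKM (HFD). Its counts were 931, 980 and 1088 (ND) against 1670, 951 and 1941 (HFD), with a log2 fold change of 0.69 ± 0.23 (SE), adjusted p = 0.0844. All HFD values in CPM were above the ND values, HFD 2 by a small margin, and Pf4 passed with DESeq2 (adjusted p = 0.0471) and without HFD 2 (adjusted p = 0.00490). In the 5 other fits that each left out 1 library Pf4 missed the threshold, with adjusted p-values of up to 0.229, and its log2 fold change was 0.45 without HFD 3. Of 8 platelet markers, 3 were tested and 1 was higher, their sum was 3.67 to 4.13 CPM (ND) against 4.75 to 6.56 CPM (HFD), and Gp1bb was at 0 in every library while Gp6 was at or under the floor. The higher one was Treml1, with counts of 1, 0 and 0 (ND) against 30, 44 and 32 (HFD), and it passed the filter only through its HFD libraries. The other platelet markers tested overlapped between the diets. Itga2b had counts of 44, 40 and 60 (ND) against 46, 48 and 59 (HFD), and Gp1ba had 10, 19 and 11 (ND) against 9, 7 and 12 (HFD). Only Treml1 among the platelet markers separated the diets.

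Cxcl16, a transmembrane ligand of Cxcr6 chosen for mention after its values were seen, had counts of 330, 248 and 323 (ND) against 475, 322 and 617 (HFD) and a log2 fold change of 0.74 ± 0.23 (SE), adjusted p = 0.0663. Its CPM values did not overlap, and it passed with DESeq2 (adjusted p = 0.0350), without the filter (adjusted p = 0.0488) and without HFD 2 (adjusted p = 0.0128). In the 5 other fits that each left out 1 library Cxcl16 missed the threshold, with adjusted p-values of up to 0.176, and its log2 fold change was 0.48 without HFD 3. Exons of Cxcl16 overlap those of Zmynd15 on the other strand, and the library kit named in the labels does not mark strand, so reads of the 2 genes cannot be told apart there.

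Cxcl12, the stromal ligand that retains leukocytes through Cxcr4, was abundant on both diets and was not called. It had counts of 3976, 3399 and 4342 (ND) against 3686, 3507 and 3289 (HFD) and a log2 fold change of -0.063 ± 0.12 (SE), adjusted p = 0.754, and the values overlapped. Leaving out 1 library kept the log2 fold change between -0.10 and -0.038. Cxcl9, an interferon-induced ligand of Cxcr3, had counts of 1192, 1041 and 1047 (ND) against 868, 937 and 348 (HFD) and a log2 fold change of -0.51 ± 0.34 (SE), adjusted p = 0.328, with the lowest value in HFD 3. The values of Cxcl9 overlapped between the diets, and its log2 fold change was -0.20 without HFD 3 and -0.80 without HFD 2.

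Ccl24, or eotaxin-2, which acts through Ccr3 like Ccl11, had HFD values below all ND values but was not called. Its counts were 423, 301 and 373 (ND) against 233, 250 and 76 (HFD), with a log2 fold change of -0.87 ± 0.41 (SE), adjusted p = 0.178, and HFD 3 was far below the other HFD libraries. Without HFD 3 the log2 fold change of Ccl24 was -0.52 (adjusted p = 0.103), and without HFD 2 it was -1.19 (adjusted p = 0.0821). Of the eotaxin ligands of Ccr3 measured, Ccl11 rose, Ccl24 gave the value above, and Ccl26 held no count in any library.

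A few ligands chosen for mention after their values were seen rested wholly or partly on 1 library. Ccl28, a ligand of Ccr10 made by mucosal epithelium, had counts of 15, 8 and 539 (ND) against 11, 11 and 12 (HFD) and a log2 fold change of -3.84 ± 1.50 (SE), adjusted p = 0.123. Without ND 3 the log2 fold change was -0.0083. The ND 3 library also held 352 CPM summed over 10 epithelial markers, against 10.2 to 13.9 CPM in the other 5 libraries, and the part of this in the Ccl28 value was not tested. Cxcl14 had counts of 143, 160 and 179 (ND) against 183, 140 and 713 (HFD), and its log2 fold change of 1.20 was 0.077 without HFD 3. The scaffold copy of Ccl21a (ENSMUSG00000095320), a lymphatic ligand of Ccr7, had counts of 235, 37 and 33 (ND) against 29, 18 and 6 (HFD) and a log2 fold change of -2.44 ± 0.91 (SE), adjusted p = 0.111. All HFD values of this copy in CPM lay below its ND values, by a small margin in HFD 1 (1.58 CPM, against 1.64 CPM in ND 3). Without ND 1 its log2 fold change was -0.91, and DESeq2 called it lower (adjusted p = 0.0190).

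The other ligands tested gave smaller or more scattered values. Cxcl13, the B cell attractant, also chosen for mention after its values were seen, had counts of 107, 234 and 37 (ND) against 235, 85 and 34 (HFD), which overlapped throughout. Log2 fold changes were -0.59 for Ccl27a (adjusted p = 0.146), -0.85 for Xcl1 (adjusted p = 0.289), 0.38 for Cxcl10 (adjusted p = 0.443), -0.17 for Ccl25 (adjusted p = 0.733) and 0.049 for Cx3cl1 (adjusted p = 0.926), 5 ligands that were also chosen for mention after their values were seen. Exons of Ccl27a, Xcl1, Cxcl10 and Ccl25 overlap those of other genes on the opposite strand, so reads there cannot be told apart. The fits without 1 library gave -1.19 to -0.37 for Xcl1 (nearest 0 without ND 2) and 0.11 to 0.55 for Cxcl10 (lowest without ND 3) on the log2 scale.

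Among the receptors, 3 of 6 CC receptors tested and 1 of 4 CXC receptors were higher on HFD. Cxcr4 (ENSMUSG00000045382, chr1:128588199-128592293, minus strand), the receptor of Cxcl12, had counts of 176, 240 and 299 (ND) against 842, 551 and 1077 (HFD). The level was 12.8 ± 2.87 (ND) against 47.0 ± 14.4 CPM (HFD) (SD, n = 3), 3.68-fold, with a log2 fold change of 1.88 ± 0.27 (SE), adjusted p = 0.00918. Each HFD library stood clearly above each ND library. Cxcr4 passed in 6 of the 6 fits that each left out 1 library, with log2 fold changes of 1.62 to 2.08 and adjusted p-values of up to 0.0460.

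Ccr3 (ENSMUSG00000035448, chr9:124021972-124031689, plus strand), the eotaxin receptor of eosinophils, had counts of only 6, 3 and 8 (ND) against 30, 18 and 52 (HFD). Its level was 0.298 ± 0.114 (ND) against 1.90 ± 0.982 CPM (HFD) (SD, n = 3), 6.20-fold, with a log2 fold change of 2.63 ± 0.54 (SE), adjusted p = 0.0208. Few as the reads were, the diets did not overlap, but Ccr3 passed the filter only through its HFD libraries. Ccr3 passed in 2 of the 6 fits that each left out 1 library and missed the threshold without ND 1, ND 2, ND 3 or HFD 1, with log2 fold changes of 2.14 to 2.92 and adjusted p-values of up to 0.0813. Of 4 eosinophil markers, 2 were tested and Siglecf, which some macrophages also carry, was higher. Siglecf had counts of 2, 3 and 6 (ND) against 24, 16 and 32 (HFD) and passed the filter only through its HFD libraries. Prg2 had counts of 11, 14 and 17 (ND) against 22, 6 and 7 (HFD). Il5ra had 2, 6 and 4 (ND) against 10, 1 and 6 (HFD), and both overlapped between the diets. The granule marker Epx held at most 1 count in a library. The sum of the 4 was 0.809 to 1.34 CPM (ND) against 1.38 to 3.06 CPM (HFD), and only Siglecf among them separated the diets. The part of these markers in the Ccr3 value was not tested.

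The Ccr3 window (chr9:124021721-124022020, plus strand) is the only one among the called receptors with a window that held the NF-kB consensus.
Ccr3: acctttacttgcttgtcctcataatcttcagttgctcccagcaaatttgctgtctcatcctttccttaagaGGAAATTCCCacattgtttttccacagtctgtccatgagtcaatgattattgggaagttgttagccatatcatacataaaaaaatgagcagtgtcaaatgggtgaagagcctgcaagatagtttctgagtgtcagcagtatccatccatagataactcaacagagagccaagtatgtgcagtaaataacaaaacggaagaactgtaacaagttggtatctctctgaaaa
Its capitals begin 179 bases before the start, on the other strand. The AP-1 motif and the CCAAT box were also found in it.

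Ccr7 (ENSMUSG00000037944, chr11:99144196-99155077, minus strand), which leads dendritic cells and lymphocytes towards lymph nodes, had counts of 13, 19 and 15 (ND) against 38, 37 and 68 (HFD). Its level was 0.849 ± 0.219 (ND) against 2.74 ± 1.02 CPM (HFD) (SD, n = 3), 3.21-fold, with a log2 fold change of 1.68 ± 0.40 (SE), adjusted p = 0.0314. The HFD libraries were all above the ND libraries. Ccr7 passed in 1 of the 6 fits that each left out 1 library and missed the threshold without ND 1, ND 2, ND 3, HFD 1 or HFD 3, with log2 fold changes of 1.32 to 1.91 and adjusted p-values of up to 0.118. Its ligand rows were nearly empty, since Ccl19 held no count in either of its copies and Ccl21a at most 1 count on chromosome 4, while the scaffold copy of Ccl21a is the one given above. The copies of Ccl19, Ccl21 and Ccl27 are nearly identical, so reads between them are uncertain.

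Ccr2, the receptor of Ccl2 and Ccl7 on monocytes, was not called. Its counts were 1670, 1209 and 1515 (ND) against 1233, 1069 and 1592 (HFD), with a log2 fold change of -0.079 ± 0.17 (SE), adjusted p = 0.783. The values overlapped, and leaving out 1 library gave log2 fold changes of -0.27 to 0.029. Of 6 monocyte markers, F10 was higher and none lower, with a sum of 751 to 982 CPM (ND) against 836 to 1129 CPM (HFD). Ccr1, the receptor of Ccl3, Ccl6 and Ccl9, had counts of 208, 168 and 163 (ND) against 321, 124 and 694 (HFD), with a log2 fold change of 1.16 ± 0.54 (SE), adjusted p = 0.177. HFD 2 was the lowest of all 6 libraries and HFD 3 the highest, and without HFD 2 Ccr1 passed at a value of 1.57 (adjusted p = 0.0196). Without HFD 3 the log2 fold change of Ccr1 was 0.35 (adjusted p = 0.568), and Ccr1 missed the threshold in 5 of the 6 fits without 1 library.

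The other receptors tested were not called. Cxcr3, the receptor of Cxcl9 and Cxcl10 on T cells, had counts of 92, 43 and 68 (ND) against 85, 42 and 51 (HFD) (log2 fold change -0.10, adjusted p = 0.871). Cxcr6, the receptor of Cxcl16, had counts of 45, 45 and 42 (ND) against 48, 40 and 64 (HFD) (log2 fold change 0.29, adjusted p = 0.529). Both overlapped between the diets. Cx3cr1, the fractalkine receptor of monocytes and macrophages, had counts of 136, 107 and 200 (ND) against 122, 58 and 154 (HFD) (log2 fold change -0.31, adjusted p = 0.587). For Ccr10 the counts were 22, 28 and 28 (ND) against 23, 21 and 13 (HFD) (log2 fold change -0.36, adjusted p = 0.514). These too overlapped, and exons of Cx3cr1 overlap those of Gm33858 on the other strand. Xcr1, a marker of cross-presenting dendritic cells, had counts of 45, 35 and 38 (ND) against 28, 24 and 15 (HFD) (log2 fold change -0.72, adjusted p = 0.186), with all HFD values below the ND values. Cxcr5, the receptor of Cxcl13 on B cells, had counts of 4, 17 and 6 (ND) against 39, 11 and 12 (HFD) (log2 fold change 1.23, adjusted p = 0.280), and its exons overlap those of Bcl9l on the other strand. The Cxcr5 value moved with single libraries, with a log2 fold change of 0.42 without HFD 1 and 2.14 without ND 2. The fits without 1 library gave log2 fold changes of -0.44 to 0.19 for Cxcr3, 0.065 to 0.41 for Cxcr6 (lowest without HFD 3), -0.64 to -0.012 for Cx3cr1 (nearest 0 without HFD 2), -0.51 to -0.17 for Ccr10 (nearest 0 without HFD 3) and -0.90 to -0.52 for Xcr1.

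None of the 4 atypical receptors was called. Ackr4, which clears Ccl19, Ccl21 and Ccl25, came closest, with counts of 126, 92 and 123 (ND) against 59, 65 and 46 (HFD) and a log2 fold change of -0.90 ± 0.25 (SE), adjusted p = 0.0511. All HFD values lay below the ND values, and Ackr4 passed with DESeq2 (adjusted p = 0.0157), limma-voom (adjusted p = 0.0428) and DESeq2's size factors in edgeR (adjusted p = 0.0483), and without HFD 2 (adjusted p = 0.0373). In the 5 other fits without 1 library its adjusted p-values were up to 0.169, and over all 6 the log2 fold changes were -1.05 to -0.79. Its exons overlap those of Acad11 on the other strand. Ackr3, the scavenger of Cxcl12, was the most abundant of the 4 per length, with counts of 1526, 1568 and 1575 (ND) against 1590, 1500 and 1046 (HFD) and a log2 fold change of -0.086 ± 0.17 (SE), adjusted p = 0.759. Ackr1, found on venules and red cells, had counts of 116, 71 and 102 (ND) against 185, 102 and 114 (HFD) and a log2 fold change of 0.56 (adjusted p = 0.203), which was 0.27 without HFD 1, and its exons overlap those of Cadm3 on the same strand. Ackr2, the scavenger of inflammatory CC ligands, had counts of 119, 52 and 104 (ND) against 75, 106 and 88 (HFD) and a log2 fold change of 0.085 (adjusted p = 0.882). Ackr1, Ackr2 and Ackr3 overlapped between the diets.

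Per length, the members covered a wide range of levels, shown in the plot of FPKM by library. On ND the 10 highest medians were those of Ccl6 (99.6 FPKM), Pf4 (75.7), Ccl11 (39.2), Ccl9 (32.2), Ccl8 (32.0), Cxcl12 (26.7), Ackr3 (25.1), Cxcl9 (20.4), Ccl2 (17.7) and Ccl24 (14.5 FPKM). On HFD the order was Ccl6 (283 FPKM), Ccl9 (168), Pf4 (127), Ccl11 (68.5), Ccl2 (55.4), Ccl7 (34.9), Ccl8 (27.3), Ackr3 (26.1), Cxcr4 (25.6) and Cxcl12 (24.8 FPKM). Ccl7 and Cxcr4 entered the 10 highest and Cxcl9 and Ccl24 left them. The largest called increases in fold, Cxcl2 and Ccl3, had HFD medians of only 2.12 and 5.30 FPKM. Neighbours in this order were not tested against each other.

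**Figure D4:**
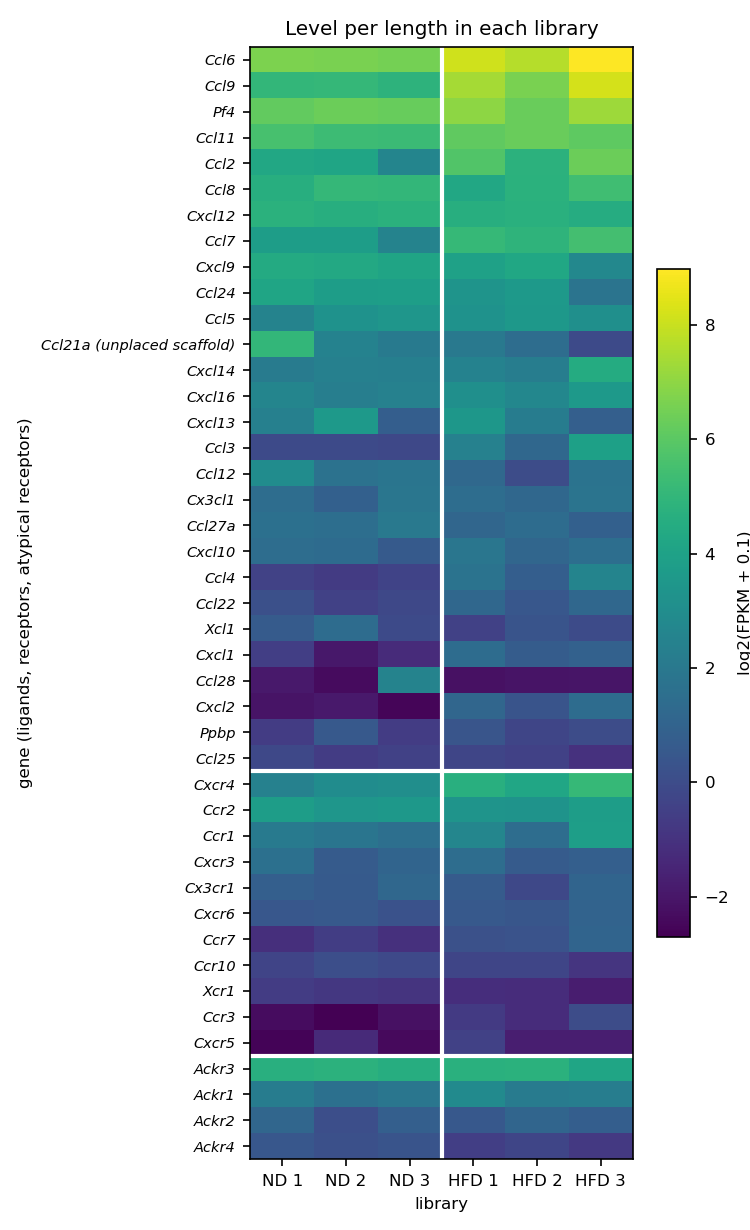
Log2(FPKM + 0.1) (colour scale) of 43 members that passed the filter (rows, ligands above receptors above atypical receptors) in each of the 6 libraries (columns). Ccl6 and Ccl9 form the brightest rows on HFD, with medians of 283 and 168 FPKM, and the Cxcl12 medians were 26.7 FPKM on ND and 24.8 FPKM on HFD.

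Summed over all 46 rows, ligand levels were 817, 774 and 765 CPM (ND) against 1651, 1239.7 and 2510.3 CPM (HFD). The receptors summed to 149, 128 and 133 CPM (ND) against 213, 160.2 and 295 CPM (HFD), and the atypical receptors to 102, 103 and 94.7 CPM (ND) against 104, 107 and 74.4 CPM (HFD). The ligand and receptor sums did not overlap between the diets and the sum of the atypical receptors did. These sums hold the called members and were given no test.

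Receptors and their ligands can be set side by side. Cxcr4 rose by 1.88 on the log2 scale while its ligand Cxcl12 had -0.063, and Ccr2 had -0.079 while its ligands Ccl2 and Ccl7 rose by 1.95 and 1.75. For Ccr3 (2.63), Ccl11 rose by 0.79 and Ccl24 had -0.87. These are differences on the log2 scale of each gene's own fit, and the differences between a receptor and its ligand were not tested.

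Of the 68 rows, 24 did not pass the filter, and 10 of them held no count in any library, which allows up to 3 counts each. All but 3 of the 24 stayed under 10 counts in every library, the exceptions being Ccl17, Cxcl5 and a scaffold copy of Ccl21b (ENSMUSG00000096271), whose counts were 3, 1 and 15 on ND and 1, 0 and 0 on HFD. The ligands without a test were Ccl1, Ccl17, Ccl19, Ccl20, Ccl21a on chromosome 4, Ccl21b, Ccl26, Ccl27b, Cxcl3, Cxcl5, Cxcl15, Cxcl17 and the scaffold copies of Ccl19, Ccl21b, Ccl21c and Ccl27. The receptors without a test were Ccr4, Ccr6, Ccr8, Ccr9, Cxcr1 and Cxcr2, none above 9 counts in a library. At these counts, no difference in these genes could be detected. For Ccl19, Ccl21 and Ccl27, reads between the nearly identical copies are uncertain, so a low count there need not mean a low level.

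The calls depended on which libraries were included. Without ND 1, 5 members were called higher (2.08% of all genes), without ND 2 3 members (2.31%), without ND 3 5 members (3.78%) and without HFD 1 4 members (2.35%). Without HFD 2, 17 members were higher (14.5% of all genes), with Pf4, Cxcl16 and Ccr1 added, and without HFD 3 11 members (8.33%), with Ccl2, Ccl22 and Ccr7 lost. Cxcl2 and Cxcr4 were among the members called in all 6 of these fits, and the log2 fold changes of the 14 members stayed above 0 in each. Tests on FPKM in place of counts lost Ccl2 and Ccl3 with a pseudocount of 1 and Ccl2 with 0.1. In both, Ccr3 was not tested, since it did not reach the minimum of 0.5 FPKM in 3 libraries. When genes of low FPKM were kept, 9 of the 14 calls were lost. Keeping genes of low counts in edgeR's test lost Ccl2 and Ccl22.

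Genes that carry the signal of chemokine receptors inside the cell were higher on HFD in 19 of 35 tested and lower in 1, with a median log2 fold change of 0.98 against 0.0074 over all genes, where 9.85% were higher and 6.04% lower. The largest increase was that of Rgs1, which shortens G protein signalling of chemokine receptors, with counts of 18, 12 and 13 (ND) against 1783, 761 and 3355 (HFD) and a log2 fold change of 7.17 ± 0.65 (SE), adjusted p = 0.00344. Pik3r5, a regulatory subunit of phosphoinositide 3-kinase gamma, had counts of 194, 183 and 231 (ND) against 1590, 826 and 3242 (HFD) and a log2 fold change of 3.31 ± 0.47 (SE), adjusted p = 0.00915. The HFD libraries were above the ND libraries for both. Plcb3, a phospholipase C, was the lower one, with counts of 1467, 1282 and 1499 (ND) against 1050, 1010 and 1032 (HFD) and a log2 fold change of -0.36 ± 0.098 (SE), adjusted p = 0.0466. Leaving out 1 library gave 5 to 25 signalling genes higher, with 7 without ND 1, 5 without ND 2, 8 without ND 3, 6 without HFD 1 and 25 without HFD 2.

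Among leukocyte and vessel adhesion genes, 7 of 14 tested were higher and none lower, with a median log2 fold change of 0.56. For this list and those that follow, 9.85% of all genes tested were higher and 6.04% lower. The integrin chains Itgax (4.54 ± 0.45 (SE), adjusted p = 0.00448), Itgb2 (3.55 ± 0.48 (SE), adjusted p = 0.00796) and Itgam (1.98 ± 0.42 (SE), adjusted p = 0.0243) had the largest log2 fold changes, and they are also carried by macrophages and other myeloid cells. Itgax had counts of 191, 104 and 174 (ND) against 2450, 2126 and 5614 (HFD), without overlap. Of 12 genes tested for other chemoattractants and their receptors, 4 were higher and none lower, with a median of 0.68, led by the complement receptors C3ar1 (3.33 ± 0.40 (SE), adjusted p = 0.00651), C5ar2 (2.83 ± 0.59 (SE), adjusted p = 0.0231) and C5ar1 (2.70 ± 0.54 (SE), adjusted p = 0.0202). C3ar1 had counts of 343, 263 and 404 (ND) against 3168, 1520 and 4867 (HFD). Of 12 genes induced by NF-kB, 7 were higher and none lower, with a median of 0.64, the largest log2 fold changes being those of the cytokine Tnf (1.90 ± 0.40 (SE), adjusted p = 0.0221), the feedback inhibitor Tnfaip3 (1.23 ± 0.11 (SE), adjusted p = 0.00338) and the subunit Rel (1.07 ± 0.23 (SE), adjusted p = 0.0240). Tnf had counts of 18, 10 and 19 (ND) against 57, 35 and 73 (HFD), which did not overlap.

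The cell types that these ligands and receptors come from were followed by marker lists. Of 11 macrophage markers, 8 were higher and none lower, with a median log2 fold change of 1.32. Over all genes tested, 9.85% were higher and 6.04% lower. Of 10 adipocyte markers, which mark the labelled tissue, Lep was higher and Cfd and Retn were lower (median -0.52). Their sums were 42436 to 55266 CPM (ND) against 21027 to 40198 CPM (HFD). Cfd alone held 11711 to 15619 CPM of this (ND) against 162 to 2501 CPM (HFD). Adipoq, Cidec, Fabp4, Lipe, Lpl, Plin1 and Pparg were not called, and all of these but Lpl overlapped between the diets. Of 7 dendritic cell markers Itgae was lower (median -0.18), and among the T cell (8 tested, median 0.52), B cell (6, 0.30) and NK cell markers (6, -0.18) none was called. The markers of endothelium (7 tested, median -0.24), lymphatic endothelium (6, -1.46), mesothelium (6, -0.29), fibroblasts and progenitors (8, 0.037), red cells (4, -0.17) and epithelium (3, -1.85) gave no call either. The sums were 11.3 to 16.8 CPM (ND) against 14.9 to 20.9 CPM (HFD) for T cells, 52.8 to 60.3 CPM (ND) against 44.8 to 55.5 CPM (HFD) for dendritic cells and 107 to 168 CPM (ND) against 89.9 to 112 CPM (HFD) for lymphatic endothelium. The lymphatic markers differed, with log2 fold changes of -2.77 (Mmrn1), -2.61 (Reln), -2.45 (Prox1), -0.47 (Flt4), -0.40 (Lyve1) and 0.51 (Pdpn). The part of these cell types in the chemokine values was not tested.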

How the data were processed

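RNA from epididymal fat was sequenced in 3 ND and 3 HFD samples, grouped by the sample labels. The authors deposited raw counts per gene without normalization, used for all tests, and FPKM values, used to compare levels between genes. The methods name GRCm38 with TopHat and Cufflinks, while the submitters' processing notes name CASAVA 1.8, fastp, HISAT2 2.0.5, featureCounts 1.5.0-p3, DESeq2 1.20.0 and a human build, although the identifiers are mouse Ensembl ones. Names, biotypes and coordinates are from GENCODE M21 (GRCm38), which holds 54495 of the 54532 identifiers.

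The main test was the quasi-likelihood F-test of edgeR 4.0.16 (R 4.3.3, robust fit) with TMM, filterByExpr and diet as the sole factor, adjusted by Benjamini-Hochberg over 15751 genes (threshold 0.05). Standard errors were derived from the F statistic. A single gene with 3 against 3 values cannot reach an exact permutation p below 0.1, and no such test was run. Alternatives were other tools (DESeq2 1.42.0 and limma-voom of limma 3.58.1), other scalings (size factors of DESeq2, plain library size), other filters (none, or at least 10 counts in 3 libraries), a non-robust fit, a replicate block, leaving out each library in turn, limma on FPKM (pseudocount 1 with a minimum of 0.5 FPKM in 3 libraries, the same with 0.1, or no minimum), protein-coding genes alone, and a log2 fold change of at least 1. On simulated data with 15461 genes, 36 of 100 genes changed by 1 on the log2 scale and 79 of 100 changed by 2 were recovered, with 4 false calls in 119.

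Named were the called members, the 10 most abundant on either diet, receptors that passed the filter, ligands of called receptors, members left out with 10 or more counts, and the 3 called genes of largest fold change per direction of each pathway list. The members and lists were chosen with earlier results of these data known. Some members and list genes that enter the counts are not reported by name or plotted here.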

Additional observations from a re-analysis of the deposited data

How the results depend on the processing

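Leaving out 1 library gave 474 to 3940 genes called in place of 2504, 3 to 17 members higher in place of 14, 0 to 1 member lower, 1 to 12 ligands higher in place of 10, 2 to 5 receptors in place of 4, and 5 to 25 signalling genes in place of 19. On FPKM without a filter, 649 genes, 5 members, 3 ligands, 2 receptors and 5 signalling genes were called. In the edgeR test, 1585 of the 2504 genes called changed by 1 or more on the log2 scale. Members lower were 2 with DESeq2, 1 with limma-voom and 1 with DESeq2's size factors in edgeR. The cause was not tested.

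No pairing by replicate number was seen. Libraries with the same number had correlations of -0.067, -0.039 and -0.0021 between their deviations over 15751 genes. Of 6 libraries, 0 correlated best with their own number. Deviations from a mean of 3 libraries depend on each other, so these values cannot settle whether a number marks a shared batch. With the replicate number as a block, 9 members and 6 ligands were higher, without Ccl2, Ccl22, Ccl3, Ccl7 and Ccr7.

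Some log2 fold changes that were not called changed sign. Ccl8 gave -0.019 with DESeq2, -0.062 with limma-voom, -0.023 with the size factors of DESeq2, -0.012 with unscaled libraries, -0.0049 without a filter, -0.053 with the block, -0.067, -0.070 and -0.067 on FPKM with pseudocounts of 1 and 0.1 and without the filter, and -0.038 with protein-coding genes only. Cxcl13 gave 0.011 with limma-voom. Leaving out 1 library changed the sign of Ackr2 (-0.16 to 0.33), Ackr3 (-0.19 to 0.061), Ccl25 (-0.38 to 0.031), Ccl5 (-0.020 to 0.38), Ccl8 (-0.35 to 0.19), Ccr2 (-0.27 to 0.029), Cx3cl1 (-0.19 to 0.30), Cxcl13 (-1.02 to 0.80), Cxcr3 (-0.44 to 0.19) and Ppbp (-0.023 to 0.78).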
